A study of Oryza sativa with 5 samples.

Results

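The lower-numbered part of rice chromosomes 9 and 10, here the first segment of each, was described through the peaks of 2 histone marks. A peak was taken as lying there when its midpoint fell on chromosome 9 from 3.8 to 11 Mb, or on chromosome 10 from 1.0 to 7.2 Mb or from 9.2 to 11 Mb. These stretches span 7.2 and 8.0 Mb and held 2584 of the 96576 peaks in the 4 lists, 1164 on chromosome 9 and 1420 on chromosome 10. By list, they held 634 and 553 H3K4me3 peaks and 693 and 704 H3K27me3 peaks (replicates 1 and 2). Members were taken by position alone, but the positions were set with earlier results of these data known. The remaining bases below 11 Mb belong to neither segment. The second segment of each chromosome ran from 11 Mb to its last peak, at 22.9 Mb on chromosome 9 and 23.2 Mb on chromosome 10, and held 8092 peaks for both chromosomes together.

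The series holds 5 samples, all of rice and of 1 kind of cell, the pollen mother cell or male meiocyte, taken at the start of meiotic prophase I. Cross-linked chromatin from small numbers of these cells was cut with micrococcal nuclease, sonicated and precipitated with an antibody against H3K4me3 (from abcam) or H3K27me3 (from Cell Signaling Technology). Each mark has 2 libraries that the labels call biological replicates, and the input library was not analysed here. The labels name no variety, genotype or treatment, so the comparisons are between stretches of chromosome and between marks, not between conditions.

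H3K4me3, trimethylation of lysine 4 on histone H3, is usually found at the starts of active genes. H3K27me3 is laid down by Polycomb repressive complex 2 and covers genes held silent, such as developmental regulators outside the tissue that uses them. In flowering plants gene density falls towards the centromeres, and on the meiotic chromosomes of rice much of the short arms of chromosomes 4 and 10 stains as dense heterochromatin. Early prophase I is the stage at which homologous chromosomes begin to recombine, and in plants crossovers are frequent near gene starts and rare in pericentromeric heterochromatin.

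Both marks were sparser in the first segments than in the second segments, and H3K4me3 more so than H3K27me3. On chromosome 9, H3K4me3 had 40.8 and 35.0 peaks per Mb (replicates 1 and 2) in the first segment and 106 and 101 in the second. H3K27me3 had 42.6 and 43.2 peaks per Mb in the first segment and 73.9 and 74.0 in the second. On chromosome 10, H3K4me3 had 42.5 and 37.6 peaks per Mb against 99.7 and 91.2, and H3K27me3 had 48.2 and 49.1 against 64.7 and 60.7. Over all 12 chromosomes the 4 lists had 80.3, 73.5, 53.0 and 52.2 peaks per Mb. The first segments were thus below the level of all chromosomes for both marks, while in the second segments all 4 lists were above it.

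The log2 ratio of peak density, first over second segment, was −1.45 ± 0.10 for H3K4me3 and −0.78 ± 0.01 for H3K27me3 on chromosome 9 (mean ± SD, n = 2 libraries). On chromosome 10 it was −1.25 ± 0.03 for H3K4me3 and −0.36 ± 0.08 for H3K27me3. As ratios, the second segment held 2.74 times the H3K4me3 peaks per Mb and 1.72 times the H3K27me3 peaks per Mb of the first on chromosome 9, and 2.39 and 1.29 times on chromosome 10. Both libraries of a mark moved in the same direction in each of these 4 comparisons, and each difference was larger than the spread between them. An exact two-sided sign-flip test over 2 libraries gave p = 0.5 each time, the smallest p this design allows.

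**Figure D1:**
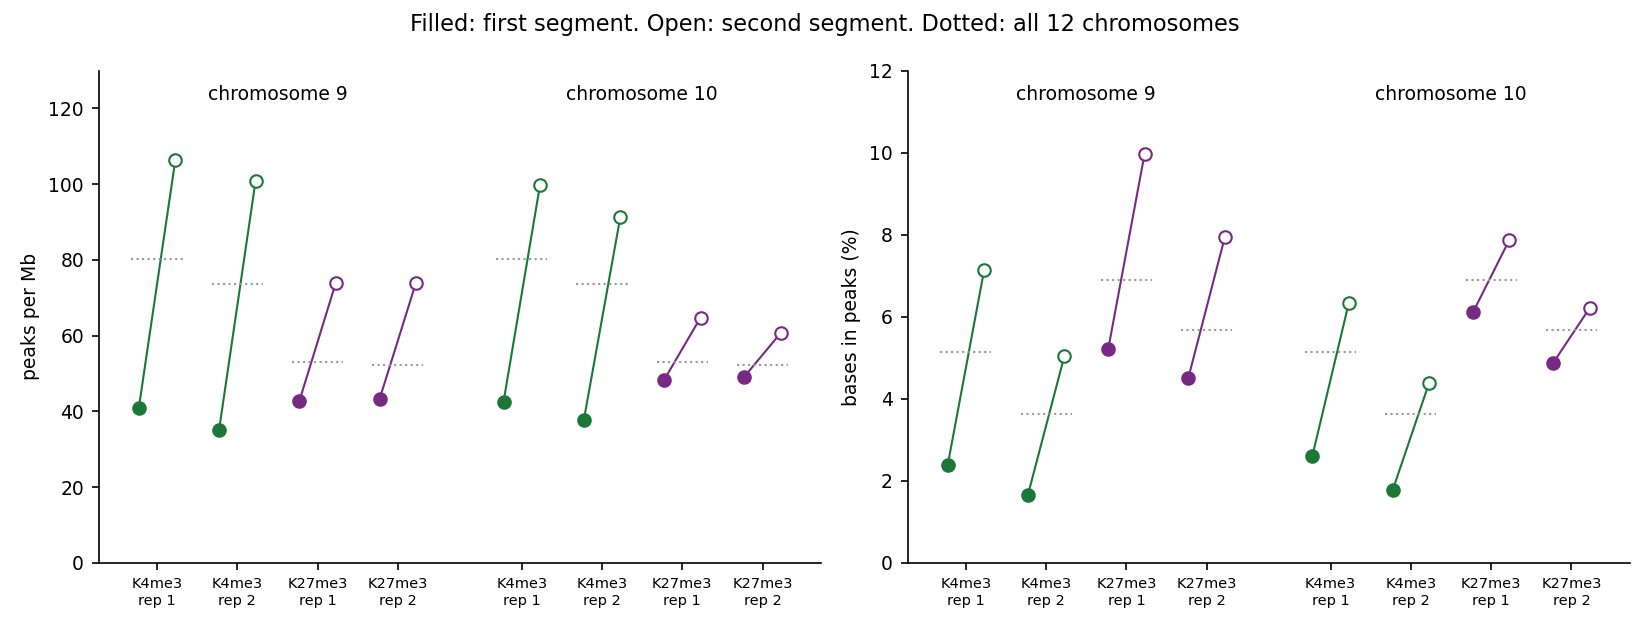
Peaks per Mb (left) and percent of bases in peaks (right) for each of the 4 libraries, with the first segment as a filled point, the second segment as an open point and the level of all 12 chromosomes as a dotted line. On chromosome 9 in replicate 1, H3K4me3 (green) stands at 40.8 against 106 peaks per Mb, farther apart than H3K27me3 (purple) at 42.6 against 73.9.

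In bases covered, H3K4me3 peaks took up 2.38% and 1.65% of the first segment of chromosome 9 and 7.14% and 5.04% of its second segment. H3K27me3 peaks took up 5.20% and 4.51% of the first segment and 9.97% and 7.94% of the second. On chromosome 10, H3K4me3 covered 2.61% and 1.77% of the first segment against 6.34% and 4.39% of the second. For H3K27me3 the values were 6.10% and 4.87% against 7.87% and 6.21%. The H3K27me3 gap between the segments of chromosome 10 was the smallest of the 4, with 1.28 times as much in the second segment, and among peaks with a −log10 q, the caller's adjusted significance, of at least 5 its log2 ratio was −0.23 in place of −0.36. The other ratios were 3.02 and 1.84 (H3K4me3 and H3K27me3 on chromosome 9) and 2.45 (H3K4me3 on chromosome 10).

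The log2 ratio of coverage for H3K27me3 exceeded that for H3K4me3 by 0.72 on chromosome 9 and by 0.94 on chromosome 10. The second-to-first ratio of H3K4me3 coverage was thus 1.65 and 1.91 times that of H3K27me3. For peak density the same difference was 0.67 and 0.89. On both chromosomes, and in both measures, the 2 libraries of H3K27me3 did not overlap the 2 of H3K4me3 in this ratio. The exact permutation test of 2 against 2 libraries gave p = 0.33 for each, the smallest it can give. Depth in reads is unknown, so a level compared between marks or replicates depends on calling, whereas both segments of a chromosome come from the same list. Gaps in the assembly and repeats, where peaks may be missed, were not checked, and their part in the low first-segment values was not tested.

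Regions were next defined as bases covered in both replicates of a mark. The first segment of chromosome 9 held 240 H3K4me3 and 228 H3K27me3 regions, and that of chromosome 10 held 287 and 327. The second segments held 1129 and 731 regions on chromosome 9 and 1040 and 607 on chromosome 10. H3K27me3 regions were thus about as many as H3K4me3 regions in the first segments, whereas H3K4me3 regions were the more numerous in the second segments. By length, H3K27me3 regions summed to 2.36 times the H3K4me3 regions in the first segment of chromosome 9 and 1.48 times in its second segment. Those of chromosome 10 were 2.48 and 1.29, and over all chromosomes 1.43.

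A similarly sparse stretch of 16.8 Mb on chromosome 4, starting at 1 Mb, had 25.9 and 22.9 H3K4me3 peaks per Mb and 28.4 and 28.4 H3K27me3 peaks per Mb. Its H3K27me3 regions summed to 2.46 times its H3K4me3 regions, against 1.39 times on the rest of that chromosome, so a ratio of this size was also found outside chromosomes 9 and 10.

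Along the chromosomes, coverage was followed in 500 kb steps, of which 14 full steps lay in the first segment of chromosome 9 and 15 in that of chromosome 10. H3K4me3 regions covered a median of 1.33% of a step on chromosome 9, from 0.24% to 3.38%, and a median of 1.34% on chromosome 10, from 0.49% to 3.15%. The second-segment medians were 4.45% and 4.16%. All 14 and all 15 first-segment steps lay below the second-segment median for H3K4me3. For H3K27me3, 11 of 14 steps lay below it on chromosome 9 but 8 of 15 on chromosome 10, where the step medians of the segments were 3.88% and 3.93%. The peaks of single libraries on chromosome 10 lay below it more often, with 13 and 12 of 15 steps for peaks per Mb and 11 and 8 of 15 for covered bases (replicates 1 and 2).

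**Figure D2:**
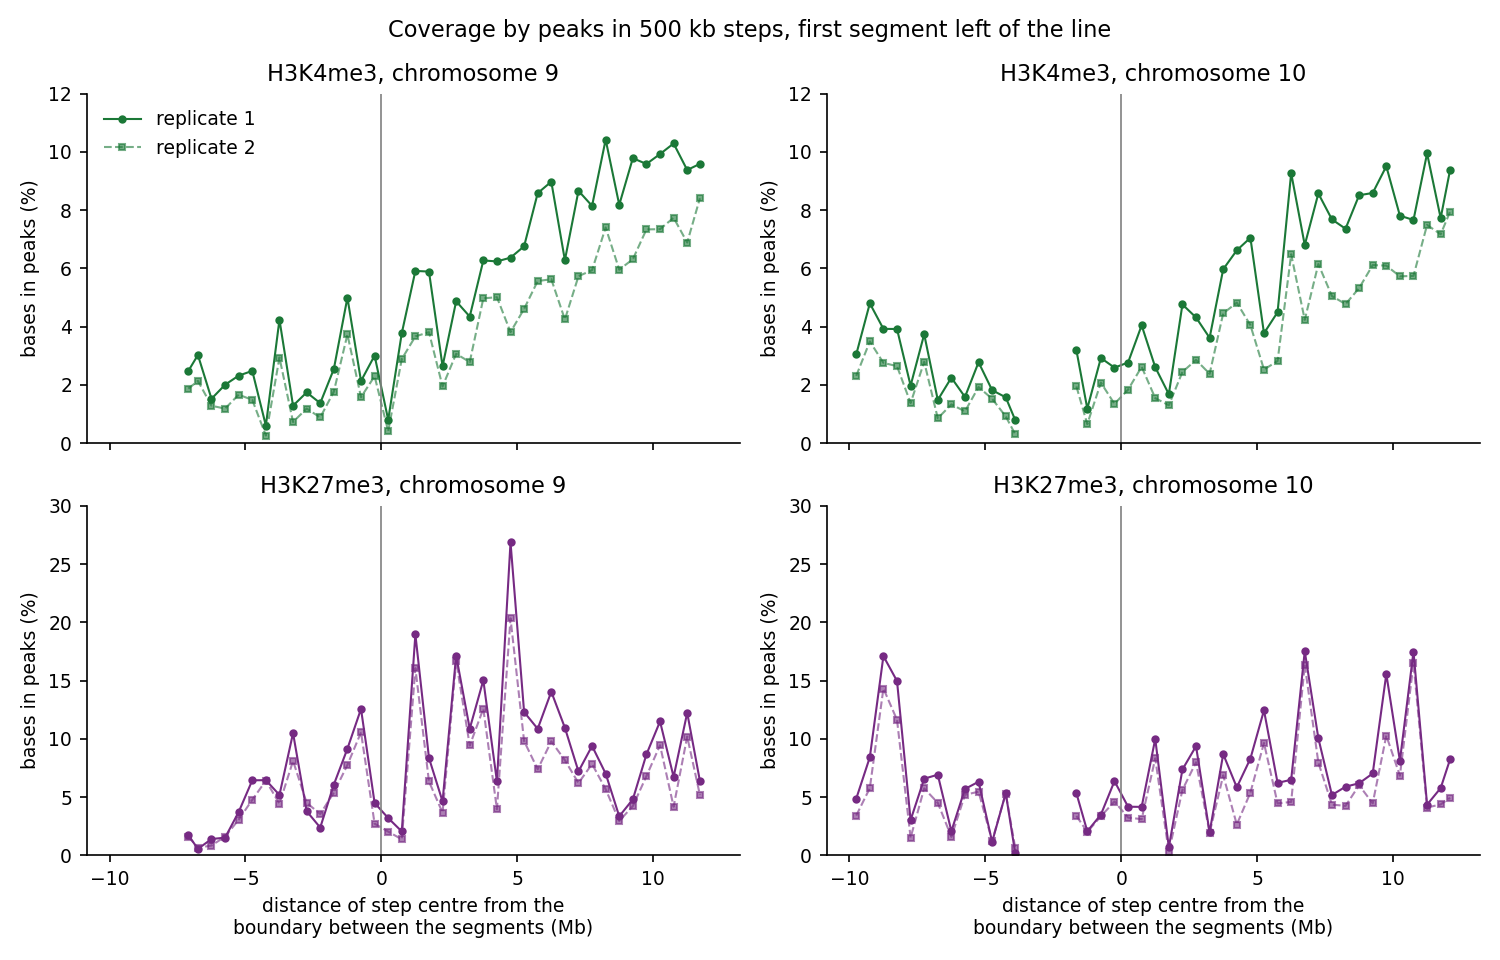
Percent of bases in peaks per 500 kb step against the distance of the step's centre from the boundary at 11 Mb, for each library (solid line, replicate 1; dashed line, replicate 2), with the first segment left of the vertical line. H3K4me3 (green, above) reaches at most 4.99% in the first segments and is higher away from the boundary in the second, whereas H3K27me3 (purple, below) comes in separate peaks of up to 17.1% in the first segments.

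H3K27me3 varied more between steps than H3K4me3. Its regions covered from 0.09% to 9.88% of a step on chromosome 9 and from 0.73% to 13.1% on chromosome 10. The 3 richest steps held 46.9% of all first-segment H3K27me3 region bases on chromosome 9, in 20.8% of the length, and 44.2% on chromosome 10, in 18.8% of the length. For H3K4me3 the 3 richest steps held 37.3% and 31.7%. The replicates followed each other closely across steps: Pearson's r between the coverage of replicates 1 and 2 was 0.99 and 0.97 (H3K4me3 and H3K27me3) over the 14 steps of chromosome 9, and 0.98 and 0.98 over the 15 of chromosome 10. These are correlations across neighbouring steps of the same libraries and serve only as a description.

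Single steps, ranked by the bases that regions of a mark covered in full steps, showed how far the marks could part. On chromosome 9 the step from 6.5 to 7.0 Mb had the least H3K4me3, with 5 and 3 peaks, yet the most H3K27me3 peaks of any first-segment step of that chromosome, 48 and 41. Those H3K27me3 peaks were short, with median widths of 421 and 465 bp, and 43.8% and 56.1% of them were found in the other replicate. H3K27me3 coverage was highest in the step from 10.0 to 10.5 Mb, where 29 and 36 peaks with median widths of 1383 and 1033 bp covered 12.6% and 10.6% of the bases. It was lowest from 4.0 to 4.5 Mb, where 5 and 7 peaks remained beside 24 and 20 H3K4me3 peaks. H3K4me3 itself was highest from 9.5 to 10.0 Mb, with 36 and 34 peaks covering 4.99% and 3.73%.

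On chromosome 10, H3K27me3 peaked from 2.0 to 2.5 Mb, where 50 and 35 peaks covered 17.1% and 14.3% of the bases, and the next step, to 3.0 Mb, had 15.0% and 11.6%. Its lowest full step by covered bases ran from 6.0 to 6.5 Mb, with 8 and 12 peaks. By the bases its regions covered in full steps, H3K4me3 was highest from 1.5 to 2.0 Mb, at 3.15%, and lowest from 9.5 to 10.0 Mb, at 0.49%. That lowest step held 14 and 9 H3K4me3 peaks, against 12 and 11 from 4.0 to 4.5 Mb and 14 and 8 from 6.5 to 7.0 Mb. The steps richest in each mark therefore lay next to each other near the start of this chromosome. Across steps of the first segment, the coverage of the marks had a Pearson's r of 0.54 on chromosome 10 and 0.04 on chromosome 9. The shorter stretch from 9.2 to 11 Mb had 40.6 and 33.3 H3K4me3 and 36.7 and 41.1 H3K27me3 peaks per Mb. The stretch from 1.0 to 7.2 Mb had 43.1 and 38.9, and 51.6 and 51.5.

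The low level of H3K4me3 ran on past 11 Mb. On chromosome 9 the last step before it had 26 and 27 H3K4me3 peaks and the first step after it 8 and 5, the fewest of its second segment. On chromosome 10 the steps on either side had 21 and 17, then 24 and 24. H3K4me3 was higher with distance past the boundary, with a Spearman's rho of 0.92 over 23 steps of chromosome 9 and 0.88 over 24 of chromosome 10. For H3K27me3 rho was −0.01 and 0.34. With the boundary moved to 10.0 or 12 Mb, the density and coverage ratios kept their direction for both marks.

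H3K4me3 peaks in the first segment of chromosome 9 had median widths of 512.5 and 399.5 bp, against 608 and 442.5 bp in its second segment. The medians of chromosome 10 were 560.5 and 424 bp against 571.5 and 422 bp. The log2 ratio was −0.20 ± 0.07 on chromosome 9 and −0.01 ± 0.02 on chromosome 10 (SD, n = 2 libraries, exact sign-flip p = 0.5 and p = 1). Peaks were thus narrower beyond the spread of the replicates on chromosome 9, whereas on chromosome 10 the difference was within it. The segments thus differed more in the number of H3K4me3 peaks than in their width. The widest H3K4me3 region of the first segment of chromosome 9 ran from 9515930 to 9517367 (1438 bp), at fold percentiles of 82.9 and 86.8 within the 2 lists. The next, from 4462445 to 4463678 (1234 bp), stood at 97.5 and 90.5, and that from 9366844 to 9367993 (1150 bp) at 52.0 and 42.6. A fold percentile is the rank of a peak's fold enrichment within its own list, with 100 the highest. On chromosome 10 the widest ran from 2888328 to 2889657 (1330 bp), from 6016882 to 6018085 (1204 bp) and from 3728029 to 3729103 (1075 bp). None of these 6 regions touched an H3K27me3 peak of either list.

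For H3K27me3, the median peak widths were 663 and 591 bp in the first segment of chromosome 9, against 738.5 and 603 bp in its second segment, and 761 and 574 bp against 761 and 592 bp on chromosome 10. The log2 ratios of −0.09 ± 0.09 and −0.02 ± 0.03 were no larger than about the spread between replicates. Peaks of at least 2000 bp made up 15.3% and 10.3% of the H3K27me3 peaks in the first segment of chromosome 9 and 16.3% and 11.3% in its second segment. On chromosome 10 they made up 15.0% and 11.96% against 14.6% and 11.8%. Long H3K27me3 peaks were therefore as common a share of the list in the sparse segments as in the dense ones.

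Of the regions of at least 5000 bp, 5 lay in each first segment, or 0.69 and 0.62 per Mb, against 21 and 11, or 1.76 and 0.90 per Mb, in the second segments. The longest on chromosome 9 ran from 7992665 to 8003853 (11189 bp), at H3K27me3 fold percentiles of 99.7 and 97.9, and 2 short H3K4me3 regions took up 6.35% of it. The next ran from 10110854 to 10120200 (9347 bp) and from 9945203 to 9953756 (8554 bp), neither touching an H3K4me3 peak. On chromosome 10 all of the 3 longest lay in the step from 2.0 to 2.5 Mb, from 2415988 to 2423453 (7466 bp), from 2423780 to 2430301 (6522 bp) and from 2355330 to 2360947 (5618 bp). The longest touched no H3K4me3 peak, and H3K4me3 regions took up 13.3% of the next. These 2 regions lay close together and had the same replicate 1 fold percentile, 91.6. The longest replicate 1 H3K27me3 peak of this segment spanned 14423 bp. They may thus be pieces of 1 replicate 1 peak, although they count as 2 regions here.

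The gap from one H3K4me3 peak to the next had a median of 9.92 and 10.6 kb in the first segment of chromosome 9 and 5.31 and 5.51 kb in its second segment. For chromosome 10 the medians were 10.7 and 11.7 kb against 5.63 and 6.15 kb. H3K27me3 gaps were shorter, 2.39 and 2.60 kb against 1.98 and 1.36 kb on chromosome 9 and 2.36 and 2.03 kb against 2.57 and 1.69 kb on chromosome 10. H3K27me3 peaks thus stood close to the next one in either segment, whereas H3K4me3 peaks stood farther apart in the first segments in both lists. The long gaps differed for both marks. The 90th percentile of gaps was 57.6 and 78.9 kb for H3K4me3 in the first segment of chromosome 9 against 19.2 and 20.7 kb, and 70.8 and 63.4 kb against 36.3 and 41.3 kb for H3K27me3. On chromosome 10 it was 57.9 and 59.2 kb against 20.3 and 22.5 kb, and 59.0 and 62.0 kb against 41.3 and 48.7 kb.

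**Figure D3:**
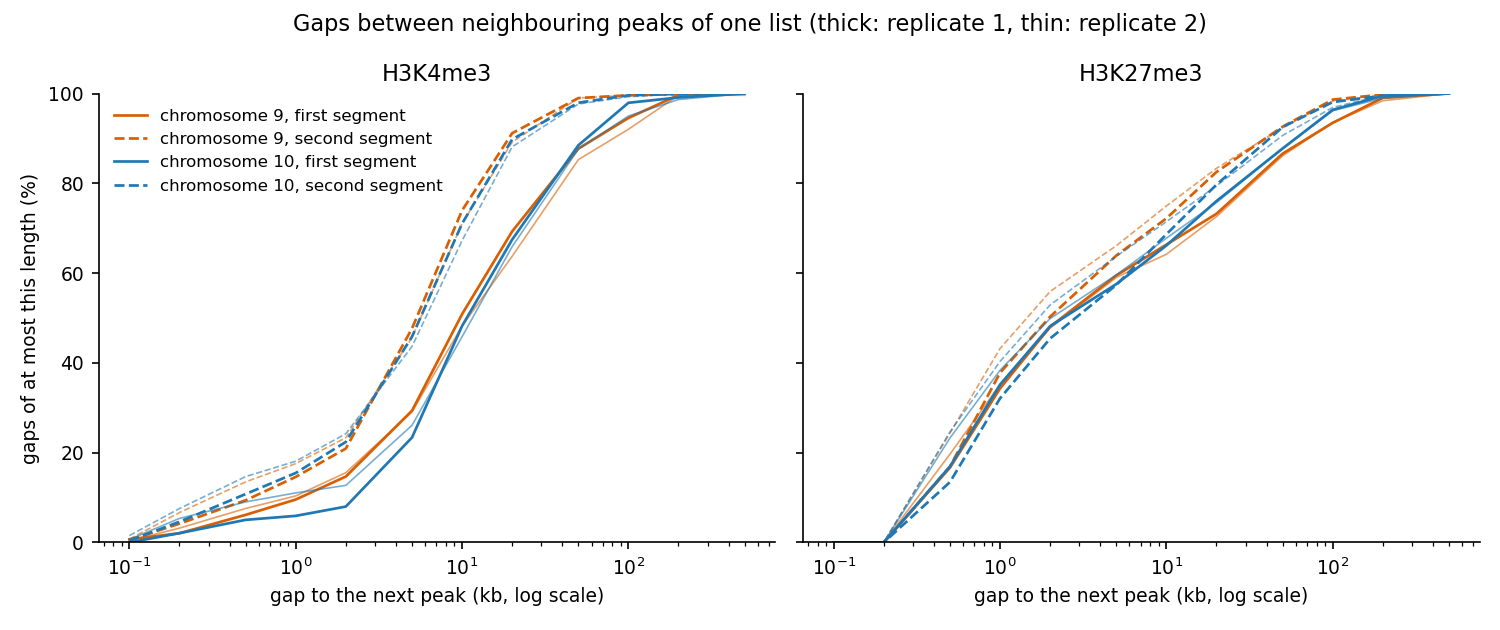
Cumulative percent of gaps between neighbouring peaks of 1 list up to a given length (kb, log scale), for H3K4me3 (left) and H3K27me3 (right), with first segments as solid and second segments as dashed lines, and replicate 1 thick. The H3K4me3 curves of the first segments lie to the right of those of the second segments at nearly all lengths, as in the median of 9.92 against 5.31 kb in replicate 1 on chromosome 9. The H3K27me3 curves of the segments run closer together below 10 kb.

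Stretches of at least 50 kb with no H3K4me3 peak in either list numbered 35 in the first segment of chromosome 9 and made up 51.8% of it, against 13 and 11.01% in its second segment. On chromosome 10 they numbered 36 and made up 41.4%, against 24 and 16.2%. Such stretches were poor in H3K27me3 as well, whose regions covered 1.70% and 1.60% of them in the 2 first segments. The longest, on chromosome 9 from 6438913 to 6869703 (431 kb), held 29 and 25 H3K27me3 peaks, of which the bases shared by both lists formed 15 regions covering 2.53%. The next on that chromosome ran from 4578191 to 4777562 (199 kb) and from 10547143 to 10732453 (185 kb), the last with 2 H3K27me3 peaks in 1 list and none in the other. On chromosome 10 the longest, from 3118669 to 3341646 (223 kb), held no peak of either mark. The next, from 5026981 to 5237819 (211 kb), held 5 and 4 H3K27me3 peaks, and that from 6307248 to 6484608 (177 kb) held 4 and 5.

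In windows of 100 kb, 8 of 72 in the first segment of chromosome 9 and 5 of 80 in that of chromosome 10 held no region of either mark, against 1 of 119 and 2 of 121 in the second segments. Windows with regions of both marks were still the majority, at 65.3% and 72.5% of first-segment windows and 85.7% and 83.5% of second-segment windows. The first segments held 33.3 and 35.9 H3K4me3 regions and 31.7 and 40.9 H3K27me3 regions per Mb. Whether windows held both marks more often than these numbers alone would give was not tested.

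Clustering within a fixed gap also differed between the marks. A share of this kind depends on peak density, and the part of density in it was not tested. Of H3K4me3 peaks in the first segment of chromosome 9, 48.3% and 47.6% had another peak of their list within 5 kb, against 71.5% and 69.9% in the second segment. Chromosome 10 had 40.0% and 44.5% against 70.0% and 68.1%. The sparse stretch of chromosome 4 had 33.6% and 34.6%, against 72.2% and 69.3% on the rest of that chromosome. For H3K27me3 the shares were 81.8% and 84.2% against 84.4% and 87.4% on chromosome 9, and 79.0% and 80.2% against 79.0% and 85.4% on chromosome 10. The difference, first minus second segment, was −22.7 ± 0.68 and −26.8 ± 4.54 percentage points for H3K4me3 on chromosomes 9 and 10 (SD, n = 2 libraries, exact sign-flip p = 0.5 for both). With a gap of at most 2 kb in place of 5 kb, the chromosome 9 value was −11.8. For H3K27me3 the difference at 5 kb was −2.89 ± 0.42 and −2.60 ± 3.75 points, and on chromosome 10 the latter rested on replicate 2 alone.

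Runs of at least 3 peaks with gaps of at most 5 kb held 21.1% and 22.2% of H3K4me3 peaks but 66.1% and 57.9% of H3K27me3 peaks in the first segment of chromosome 9. On chromosome 10 they held 14.7% and 18.6% against 60.9% and 64.4%. The second-segment values were 45.3% and 43.9% for H3K4me3 and 68.7% and 70.0% for H3K27me3 on chromosome 9, and 43.5% and 40.7%, then 62.7% and 70.5%, on chromosome 10. The longest run in the first segments joined 18 H3K27me3 peaks, on chromosome 10 in replicate 1. Relative to the mean gap, spacing was about as uneven in both segments. The standard deviation of the gaps divided by their mean lay between 1.40 and 1.70 for H3K4me3 and between 1.99 and 2.2 for H3K27me3 over all 4 stretches and both replicates.

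H3K4me3 peaks touched H3K27me3 more often in the first segments, while H3K27me3 peaks touched H3K4me3 less often there. In the first segment of chromosome 9, 19.7% and 19.4% of H3K4me3 peaks shared at least 1 bp with an H3K27me3 region, against 16.1% and 15.9% in its second segment. The 95% Wilson intervals overlapped, at 15.6 to 24.7 and 15.0 to 24.8 against 14.2 to 18.2 and 13.9 to 18.1. Chromosome 10 had 23.5% (95% Wilson interval 19.3 to 28.3) and 24.3% (19.8 to 29.4), against 15.4% (13.5 to 17.5) and 15.7% (13.7 to 18.0). Over all chromosomes 14.9% and 14.8% of H3K4me3 peaks did so. Of H3K27me3 peaks, 19.9% and 12.5% touched an H3K4me3 region in the first segment of chromosome 9 against 25.6% and 17.0% in the second. On chromosome 10, 22.3% and 15.0% did against 30.04% and 18.4%, with 25.5% and 16.7% over all chromosomes. The H3K27me3 intervals of chromosome 9 overlapped too, at 15.8 to 24.7 and 9.31 to 16.7 against 22.9 to 28.6 and 14.7 to 19.6. Those of chromosome 10 overlapped in replicate 2, at 11.8 to 18.9 against 15.8 to 21.3. In replicate 1 they were 18.4 to 26.7 against 26.9 to 33.3. These intervals allow for counting error alone, and peaks that lie side by side are not independent of each other. The shares of the 2 marks count largely the same contacts over different totals, and so are not separate results.

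The change, first minus second segment, was 3.60 ± 0.06 and 8.33 ± 0.26 percentage points for H3K4me3 on chromosomes 9 and 10 and −5.10 ± 0.92 and −5.56 ± 3.11 points for H3K27me3 (SD, n = 2 libraries, exact sign-flip p = 0.5 for each). With the boundary at 10.0 Mb the H3K4me3 value on chromosome 9 became −1.44. At a −log10 q of at least 5 the H3K27me3 value on chromosome 10 became 4.96. The H3K27me3 value on chromosome 9 stayed below 0 under the 11 alternatives tried, between −8.86 with regions from either replicate and −1.67 with 15000 peaks per list, and was −7.74 without H3K4me3 replicate 2. On chromosome 10 it was −3.37 without H3K27me3 replicate 1. The H3K4me3 difference on chromosome 10 kept its direction under the 11 alternatives tried, between 3.86 and 8.52 points. The share was higher in the stretch from 1.0 to 7.2 Mb, with 25.5% and 26.1%, than in that from 9.2 to 11 Mb, with 16.4% and 16.7%. Because the lists come from many cells, both marks on 1 piece of chromatin and each mark in different cells or on different homologues cannot be told apart.

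**Figure D4:**
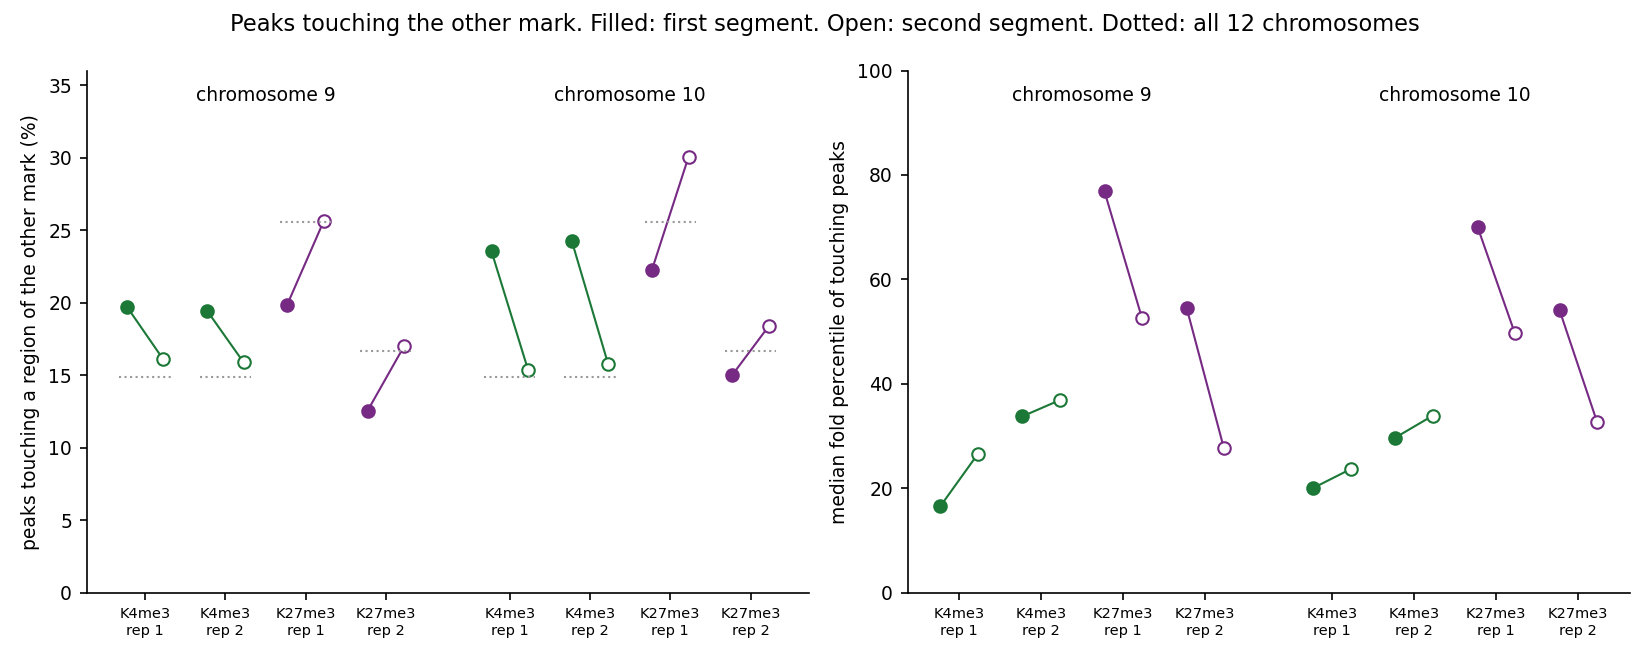
Percent of peaks touching a region of the other mark (left) and the median percentile of fold enrichment, within their own list, of the peaks that touch (right), for each library, with the first segment filled, the second segment open and the level of all chromosomes dotted on the left. On the left the H3K4me3 points (green) lie higher in the first segment, as 23.5% against 15.4% on chromosome 10, and the H3K27me3 points (purple) lower. On the right the H3K27me3 points lie higher in the first segment, as 76.8 against 52.7 on chromosome 9.

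In bases, 14.9% of H3K4me3 region length in the first segment of chromosome 9 lay inside H3K27me3 regions, against 11.2% in its second segment. The values of chromosome 10 were 19.1% and 11.6%, and over all chromosomes 10.8%. H3K27me3 covered 3.52% and 4.02% of the 2 first segments, so H3K4me3 bases lay in it 4.24 and 4.74 times as often as bases of the stretch at large. In the second segments this ratio was 1.67 and 2.28, and over all chromosomes 2.30. The sparse stretch of chromosome 4 had 6.82, against 1.43 on the rest of that chromosome. A ratio above that of the first segments was thus also found elsewhere. Taken within windows of 100 kb, so that stretches with neither mark did not count, the ratio was 4.19 and 3.09 in the first segments against 1.93 and 2.27 in the second. Within windows of 500 kb it was 4.19 and 3.91 against 1.69 and 2.17. The difference between the segments of chromosome 10 was smaller within windows than over the whole stretch, and more so at 100 kb than at 500 kb.

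The longest bases shared by both marks in the first segment of chromosome 9 ran from 9459423 to 9460321 (899 bp), from 7077956 to 7078764 (809 bp) and from 7378678 to 7379382 (705 bp). On chromosome 10 they ran from 2733285 to 2734261 (977 bp), from 3894306 to 3895113 (808 bp) and from 9377168 to 9377908 (741 bp). The first of chromosome 10 ranked high for both marks, with H3K4me3 fold percentiles of 91.6 and 80.1 and H3K27me3 percentiles of 97.3 and 80.9. That at 3894306 stood lower in the H3K4me3 lists, at 32.5 and 27.3, than in those of H3K27me3, at 94.6 and 69.5. By region, 19.2% of H3K4me3 regions in the first segment of chromosome 9 and 23% in that of chromosome 10 touched H3K27me3, against 15.0% and 15.2% in the second segments.

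The shortest H3K27me3 regions touched H3K4me3 least often. In the first segments 7 of 84 regions under 500 bp on chromosome 9 and 11 of 138 on chromosome 10 touched an H3K4me3 region, or 8.33% and 7.97%. In the second segments 12.2% and 16.9% of regions this short did. Of regions from 2000 to 5000 bp, 26.1% and 36.1% touched H3K4me3 in the first segments, and 26.1% and 42.6% in the second. The shortest class was thus the lower in the first segment on both chromosomes, and each of these classes holds few touching regions there.

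The peaks that touched the other mark also ranked differently by fold enrichment within their own list, a measure chosen after the data were seen. H3K27me3 peaks touching H3K4me3 in the first segment of chromosome 9 had a median fold percentile of 76.8 and 54.6, against 52.7 and 27.7 in the second segment. The medians of chromosome 10 were 70.1 and 54.1 against 49.7 and 32.8, and over all chromosomes 54.7 and 38.9. The difference of 25.5 ± 1.96 and 20.8 ± 0.64 percentile points was beyond the spread of the replicates (SD, n = 2 libraries, exact sign-flip p = 0.5). Among stronger peaks it was mixed. At a −log10 q of at least 5 it was −1.78 on chromosome 9 and 10.4 on chromosome 10, and among the 15000 peaks with the highest −log10 q of each list it was 19.0 and −16.5. Touching H3K27me3 peaks were also wider in the first segments. Their median widths were 1323 and 1098 bp against 1054 and 823 bp on chromosome 9. On chromosome 10 they were 1227.5 and 953 bp against 943 and 892 bp. In replicate 1, their median percentile was higher in the first segments both under 1000 bp and at 1000 bp or over. Under 1000 bp, replicate 2 had 40.8 against 11.3 on chromosome 9 but 12.01 against 11.14 on chromosome 10. At 1000 bp or over, replicate 2 had 66.5 against 68.3 on chromosome 9 and 84.7 against 68.4 on chromosome 10. The part of width in the rank difference was not tested.

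H3K4me3 peaks that touched H3K27me3 were of low rank in both segments. Their median fold percentile in the first segment of chromosome 9 was 16.6 and 33.8, against 51.7 and 53.0 for the H3K4me3 peaks there that did not touch. On chromosome 10 it was 20.1 and 29.7 against 49.9 and 46.7. In the second segments it lay between 23.7 and 36.9. Over all H3K4me3 peaks, touching or not, the median percentile was 44.6 and 51.1 in the first segment of chromosome 9 and 39.1 and 43.1 in that of chromosome 10. First-segment H3K4me3 peaks of chromosome 10 were thus somewhat weaker than their lists in general, whereas H3K27me3 peaks there stood at 53.2 and 51.8.

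Replicates shared H3K4me3 peaks about as often in the first segments as elsewhere. At least 1 bp in the other replicate was found for 77.6% and 94.4% of H3K4me3 peaks in the first segment of chromosome 9 and 77.9% and 95.3% in that of chromosome 10. In the second segments the shares were 80.7% and 93.3%, and 78.1% and 93.2%, and over all chromosomes 79.4% and 93.3%. Differences of −1.01 ± 2.99 and 1.00 ± 1.67 percentage points were smaller than the spread between the 2 lists (SD, n = 2, exact sign-flip p = 1). The 2 values of a stretch rest on largely the same overlaps between the lists and are not independent replicates. When at least 50% of both peaks had to overlap, the first segments had the higher shares. On chromosome 9 they were 67.0% and 78.2% against 64.0% and 67.6%, a mean difference of 6.79 points. On chromosome 10 they were 62.6% and 70.8% against 61.4% and 67.2%. Both lists count the same pairs here, 197 and 812 in the segments of chromosome 9 and 213 and 747 on chromosome 10. The 95% Wilson intervals overlapped in all but replicate 2 on chromosome 9, at 72.7 to 82.8 against 64.9 to 70.1. In the stricter lists the difference on chromosome 9 went the other way, at −5.74 points with a −log10 q of at least 5 and −2.58 with 15000 peaks per list, and on chromosome 10 it was 0.75 and −4.99.

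The summits of shared H3K4me3 peaks also lay closer together in the first segments, again a measure chosen after the data were seen. The median distance from a peak's summit to that in the other replicate was 48.0 and 50.5 bp in the first segment of chromosome 9, against 62.0 and 74.0 bp in the second. On chromosome 10 it was 47.0 and 53.0 bp against 60.5 and 73.0 bp, and over all chromosomes 56.0 and 65.0 bp. The log2 ratio was −0.46 ± 0.13 and −0.41 ± 0.07 (SD, n = 2, exact sign-flip p = 0.5) and kept its direction under the 5 alternatives tried for each chromosome. The 2 values of a stretch come from nearly the same pairs of peaks and are not independent replicates. First-segment peaks were also the narrower on chromosome 9, and the part of width in the summit distance was not tested.

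H3K27me3 peaks were shared less often in the first segment of chromosome 9. There 61.6% (95% Wilson interval 56.0 to 66.8) of replicate 1 and 69.5% (64.1 to 74.3) of replicate 2 were found in the other library, against 66.0% (62.8 to 69.0) and 80.2% (77.4 to 82.7) in its second segment. On chromosome 10 the shares were 68.4% and 79.4% against 63.0% and 79.5%, and over all chromosomes 67.2% and 79.8%. The difference was −7.58 ± 4.46 percentage points on chromosome 9 (SD, n = 2, exact sign-flip p = 0.5) and 2.67 ± 3.87 on chromosome 10 (exact sign-flip p = 1). On chromosome 9 it turned to 4.41 at a −log10 q of at least 5. As for H3K4me3, the 2 values of a stretch rest on largely the same overlaps and are not independent replicates.

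The lower sharing on chromosome 9 was found below the highest group of fold enrichment. With each list divided into 4 groups by fold enrichment, 46.2% of the replicate 2 H3K27me3 peaks in the second-lowest group were shared in the first segment against 70.5% in the second, and 56.5% against 72.9% in the lowest. In the 2 higher groups the shares were 84.1% against 83.9% and 94.1% against 95.9%. In replicate 1 both middle groups were lower in the first segment, at 49.4% against 62.2% and 65.9% against 83.04%. Shared H3K27me3 peaks of the first segment of chromosome 9 were wider than unshared ones, with medians of 1037 and 858 bp against 388 and 330 bp.

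**Figure D5:**
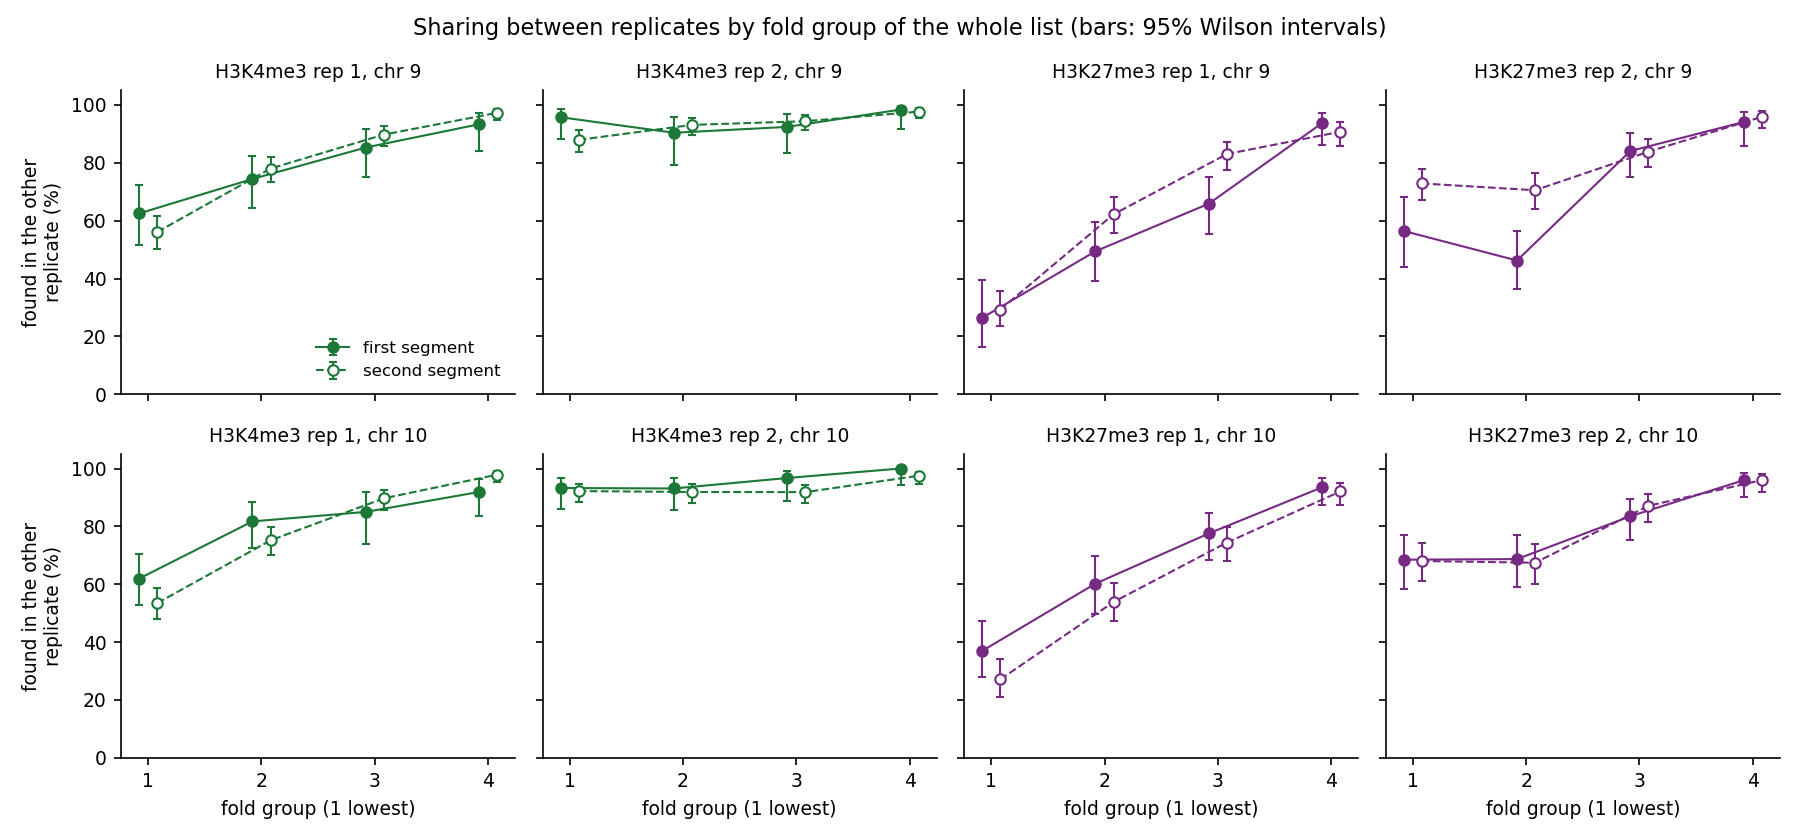
Percent of peaks found in the other replicate, by group of fold enrichment (1 lowest, 4 highest, 4 equal groups of the whole list), for each library and chromosome, with first segments filled and second segments open; bars are 95% Wilson intervals, which cover counting error only. The widest separation is in H3K27me3 replicate 2 on chromosome 9, at 46.2% against 70.5% in group 2, while group 4 lies at 90.7% or more in every panel.

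The unshared H3K27me3 peaks differed between the libraries in their contact with H3K4me3. Of those in replicate 1, 26 of 118 on chromosome 9 and 42 of 122 on chromosome 10 touched a peak of H3K4me3 replicate 1. Of those in replicate 2, 0 of 95 did on chromosome 9, which allows a share of up to 3.16%, and 1 of 81 did on chromosome 10. In the second segments it was 4 of 175 and 2 of 152 for replicate 2, so this contrast between the lists was not particular to the first segments. The names of the peaks carry a different tag in each list, and the labels do not say how the handling of the libraries differed before calling. The part of list handling in this contrast was not tested.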

How the data were processed

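Peaks were deposited as 1 list per immunoprecipitated library, narrow with a summit for H3K4me3 and broad for H3K27me3. Tools named in the submitters' processing notes are MACS2, Bowtie2, fastp, Picard, SAMtools and deepTools, with versions, genome build, control and thresholds not given in the sources used here. The fold enrichment deposited for each peak is the authors' ratio over background and served only for ranks (percentiles) within 1 list. Significance was deposited as −log10 p and −log10 q, of which −log10 q served for the stricter lists. The deposited score was not used. Depth in reads is unknown, and the tags in the peak names differ between lists (merge, uniq, subsample, S011), so libraries may have been handled differently before calling.

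Positions are those of the lists. No gene is named and no sequence printed, because no genome of their build was used here. A chromosome was taken to end with its last peak, which gave 372.8 Mb in all, and a peak was placed by its midpoint. Overlap meant at least 1 bp, a cluster gap was at most 5 kb, and regions were bases covered in both replicates. Each library gave 1 value per stretch. The segments were compared over 2 libraries of a mark by an exact sign-flip test and the marks by an exact permutation test of 2 against 2. The libraries are labelled biological replicates, but peaks, steps and windows are not replicates. Intervals are 95% Wilson intervals.

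The members, measures and regions were chosen with earlier results of these data known. The regions named are, per first segment, the 3 longest each of H3K27me3 regions, stretches with both marks and gaps free of H3K4me3, the 3 widest H3K4me3 regions, and the steps highest and lowest in each mark. Alternatives were a −log10 q of at least 5, the 15000 peaks highest in −log10 q of each list, a boundary at 10.0 or 12 Mb, a second segment without its last 1 Mb, other overlap and cluster definitions, and leaving out each library. The code was tested on simulated lists with planted overlaps. Python 3.11.15, numpy 2.4.6, scipy 1.17.1 and matplotlib 3.10.9 were used.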

Additional observations from a re-analysis of the deposited data

Results flagged for a closer look

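The share of peaks touching the other mark moved in opposite directions for the 2 marks between the segments of each chromosome. On chromosome 9, first minus second segment, it was 3.60 percentage points for H3K4me3 and −5.10 for H3K27me3, each direction seen in both libraries. On chromosome 10 it was 8.33 points for H3K4me3 and −5.56 for H3K27me3, again in both libraries. The difference between the marks was not tested. Both shares count largely the same contacts over different totals, and so are not separate results. Touching regions, first against second segment, were 46 of 240 against 169 of 1129 for H3K4me3 on chromosome 9. For H3K27me3 there they were 39 of 228 against 145 of 731. Chromosome 10 had 66 of 287 against 158 of 1040, and 59 of 327 against 135 of 607. The part of region number in the opposite directions was not tested.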

How the results depend on the processing

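Of 256 values for 32 results under the alternatives, 241 kept their direction and 15, in 11 results, turned. Those kept include the values with the replicate number as a block or with crossed pairs, which equal the main values by construction. They also include the log2 width of H3K27me3 on chromosome 10 without H3K27me3 replicate 2, which was 0 and has no direction. Of those kept, 40 changed in size by more than 1.5 times. The tests could not pass a threshold in this design, so direction is all that is compared. The density, coverage and mark differences kept their direction under every alternative tried. The H3K27me3 ratios on chromosome 10 were smallest at a −log10 q of at least 5, with a log2 density ratio of −0.24 and a log2 coverage ratio of −0.23.

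The reversals were in width, sharing, overlap, clustering and fold rank, and their causes were not tested. At a −log10 q of at least 5, log2 width of H3K4me3 on chromosome 10 became 0.0035, H3K27me3 sharing on chromosome 9 became 4.41 points, and H3K27me3 overlap and clustering on chromosome 10 became 4.96 and 8.97 points. With 15000 peaks per list, log2 width of H3K27me3 became 0.014 on chromosome 9 and 0.023 on chromosome 10, and H3K4me3 sharing on chromosome 10 became −4.99 points. Without the last 1 Mb, log2 width of H3K4me3 on chromosome 10 became 0.0053. With overlap of at least 50% of both peaks, H3K4me3 sharing on chromosome 9 became 6.79 points. With the boundary at 10.0 Mb, H3K4me3 overlap on chromosome 9 became −1.44 points. With a gap of at most 2 kb, H3K27me3 clustering on chromosome 10 became 1.03 points. The fold rank of touching H3K27me3 peaks became −1.78 (chromosome 9, −log10 q of at least 5) and −16.5 (chromosome 10, 15000 peaks).

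Leaving out 1 library gave log2 H3K4me3 widths on chromosome 10 from −0.028 to 0.0068 and H3K27me3 clustering there from −5.25 to 0.055 points, and gives no value for replicate sharing. With the replicate number as a block, the mark differences in coverage were 0.72 and 0.94 and in density 0.67 and 0.89, with an exact sign-flip p of 0.5. Pairing cannot change these means, so they equal those without a block by construction. The libraries share only a number: same-numbered deviations had a Pearson's r of −0.15 over 76 steps. Crossed pairs, added after seeing the data, gave the same mark differences for the same reason.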
